A study of Danio rerio with 11 samples.

Results

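The genes ush1c (ENSDARG00000051876) and espn (ENSDARG00000076414) encode harmonin and espin, proteins of actin-filled protrusions. They are 2 of the 39714 gene IDs measured in intraspinal serotonergic neurons (ISNs), local cells of the cord that make serotonin. Both were picked because their levels differed between the injury segment and the distal segments in these libraries. That difference is therefore described here and not tested.

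Microvilli and the stereocilia of hair cells are finger-like protrusions filled with parallel actin filaments. Espin bundles these filaments, and harmonin is a PDZ-domain scaffold that links membrane cadherins and myosins to them. In the hair bundle harmonin holds the upper end of the tip links, with cadherin 23, myosin VIIa and the scaffold Sans, and mutations of its gene cause Usher syndrome in people. In the brush border of the gut harmonin joins the intermicrovillar links, built from other cadherins. In the zebrafish spinal cord the best known microvillus-bearing neurons are those that touch the cerebrospinal fluid with an apical tuft.

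The ISNs came from juvenile or adult Tg(tph2:GFP) zebrafish of both sexes, 6 to 8 weeks old, in which the regulatory region of tph2, the neuronal tryptophan hydroxylase gene, drives green fluorescent protein. In all fish the cord had been cut completely at the seventh segment, so both groups are from injured animals and no uninjured ISNs were included. GFP-positive cells were sorted 6 to 8 weeks after injury. The injury segment gave 6 libraries, and segments away from it in the same fish gave 5. How many fish went into a library, and which libraries share fish, is not given in the sources used here, so the spread between libraries may be partly technical.

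Levels are in FPKM, the fragments per kilobase of gene and mapped fragments, which are comparable between genes because they are scaled by length. The libraries rested on 14215980 to 19709661 fragments. Depth varied little, but the number of genes above 0 ran from 5327 in injury replicate 3 and 6953 in injury replicate 2 to 20866 and 21578 in injury replicates 6 and 5. The distal libraries held 10393 to 18988 genes above 0. The sorted cells carried the defining genes of their label: 7 of 9 IDs of serotonergic identity were above 0 in all 11 libraries, and their summed level was 6317 to 9804 FPKM at the injury, against 4074 to 11202 FPKM distally. Because these are bulk samples, fewer cells that carry a transcript and less transcript per cell cannot be told apart.

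ush1c was present in every distal library and nearly absent at the injury. The distal levels were 18.3, 27.1, 13.5, 7.75 and 31.8 FPKM in distal replicates 1 to 5. Of the injury libraries only replicate 5 had any, 0.354 FPKM, and replicates 1, 2, 3, 4 and 6 were listed at 0. The groups did not overlap, and the lowest distal library lay 21.9 times above the only injury library with any signal.

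The whole fragments behind these levels, recovered from the FPKM values, numbered 497, 633, 347, 159 and 791 in distal replicates 1 to 5. Injury replicate 5 held 7 fragments. A count of 0 allows up to 3 fragments, which for ush1c corresponds to 0.109 to 0.152 FPKM depending on the library. These limits cover counting error only, since copies made by cDNA amplification are not independent molecules. Within the distal libraries ush1c ranked high in 4 of 5, its level exceeding that of 70.2% to 86.6% of the genes detected there. The exception was distal replicate 4, where 46.0% of detected genes were lower.

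espn had the same arrangement with a weaker contrast, being low rather than absent in injury replicates 5 and 6, which detected the most genes. Its levels were 9.10, 64.3, 17.3, 9.63 and 16.2 FPKM in distal replicates 1 to 5. The injury replicates 1, 5 and 6 had 0.0791, 2.02 and 1.81 FPKM, and replicates 2, 3 and 4 were listed at 0. In replicate 1 the level rested on 4 fragments, close to the limit of 3 fragments, 0.0593 FPKM there. The groups did not overlap, and the lowest distal library lay 4.49 times above the highest injury library.

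Distal replicate 2 stood apart for espn. It held 2928 of its fragments, against 385 to 863 in the other 4 distal libraries and 4, 78 and 83 in injury replicates 1, 5 and 6. The distal levels of espn spanned 7.07 times from lowest to highest and those of ush1c 4.11 times. In the distal libraries 50.8% to 87.0% of the detected genes were lower than espn, close to the place that ush1c took.

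**Figure D1:**
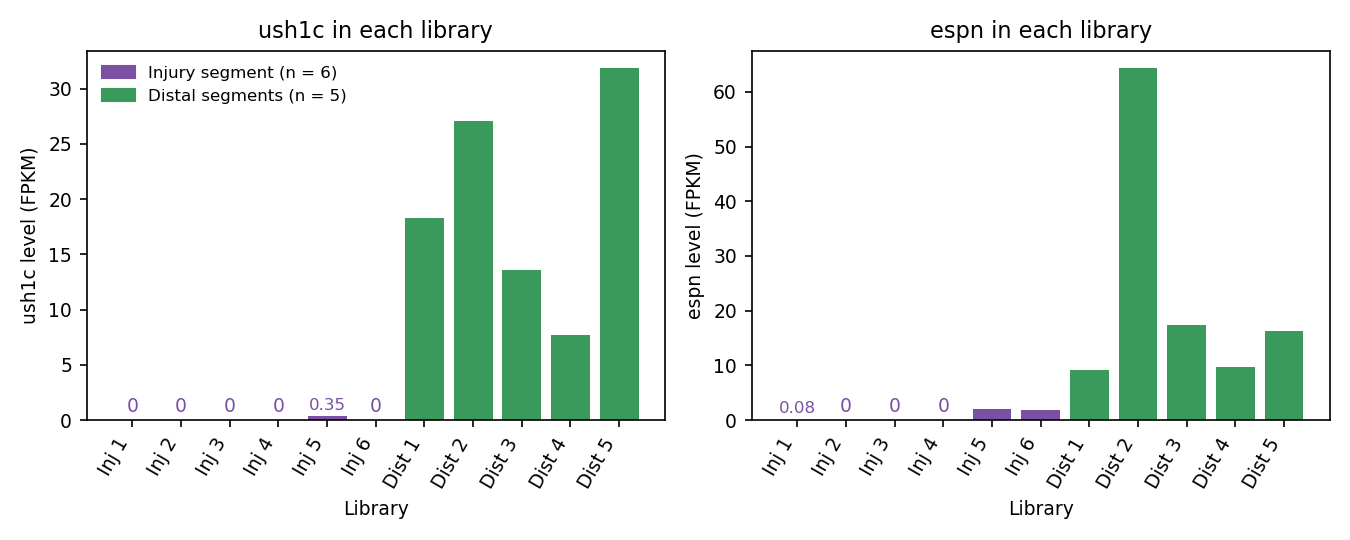
Bars show the FPKM of ush1c (left) and espn (right) in each of the 6 injury libraries (Inj, purple) and 5 distal libraries (Dist, green); 0 marks a library where the gene was listed at 0, and values under 1 are written above the bar. All distal bars, at 7.75 to 31.8 FPKM for ush1c and 9.10 to 64.3 FPKM for espn, stand above all injury bars.

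On the scale of log2(FPKM + 1), the fitted difference of injury minus distal was -4.15 ± 0.85 for ush1c and -3.68 ± 0.89 for espn (SE, n = 6 and 5). Every SE given here is limma's, with the variance drawn toward a trend over all genes. It is therefore not the spread of the gene's own libraries. Their SDs at the injury and distally were 0.178 and 0.764 for ush1c, and 0.784 and 1.09 for espn. As the genes were chosen on this contrast, these differences are descriptions. They were the 2nd and 5th lowest differences among the 24178 genes tested. Groups without overlap and with the injury libraries below the distal ones were found for both genes and for 45 of the 24178 genes in all, or 0.186%, while 0.0662% separated the other way. The size of the difference rests on the number added before the logarithm, because so many injury values were 0: with 0.1 in place of 1 it was -7.10 for ush1c and -5.87 for espn.

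Among the 5 distal libraries the genes rose and fell together only in part. The FPKM of espn was 0.497, 2.38, 1.28, 1.24 and 0.509 times that of ush1c in distal replicates 1 to 5. ush1c was highest in distal replicate 5, where espn was lower than in replicates 2 and 3, and espn was highest in distal replicate 2, where ush1c had its next highest level. In distal replicate 4 ush1c was at its lowest, and espn, at 9.63 FPKM, was near its lowest, 9.10 FPKM in distal replicate 1.

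The levels were then set against the number of genes detected, since a library that samples few transcripts can miss a gene that its cells carry. In the distal libraries ush1c did not follow that number. Those with the fewest and the most genes above 0, distal replicates 2 (10393) and 5 (18988), had its highest levels. The level of espn was also highest in distal replicate 2. It was 9.63 and 9.10 FPKM in distal replicates 4 and 1 (12327 and 13759 genes). In distal replicates 3 and 5 (16332 and 18988 genes) it was higher, at 17.3 and 16.2 FPKM. At the injury, espn was above 0 in the 3 libraries with 18507 or more genes above 0 and at 0 in the 3 with 12126 or fewer. ush1c was listed at 0 in both kinds of injury library. Injury replicates 1 and 6 held 18507 and 20866 genes above 0, the first near and the second above the richest distal library, and neither had a fragment of ush1c.

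**Figure D2:**
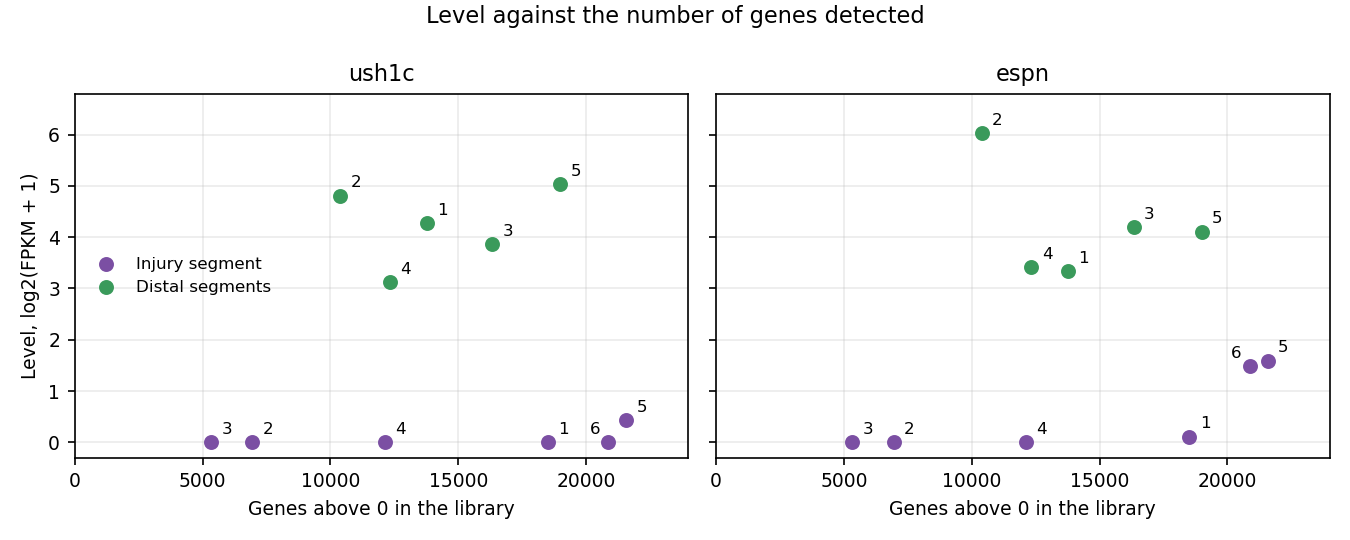
Each point is a library, numbered by replicate, with the number of genes above 0 on the horizontal axis and the level of ush1c (left) or espn (right) as log2(FPKM + 1) on the vertical axis. Injury replicates 1, 5 and 6, at 18507 to 21578 genes, lie below all distal points for both genes.

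A background for this is given by the 3055 genes with at least 5 FPKM in every distal library, to which both genes belong. The share of them listed at 0 was 20.9%, 34.7% and 5.89% in injury replicates 2, 3 and 4. A 0 was therefore common in replicates 2 and 3 and less so in replicate 4. In injury replicates 1, 5 and 6 only 6, 1 and 3 of the 3055 genes were listed at 0, which is 0.196%, 0.0327% and 0.0982%. ush1c was among the 6 of replicate 1 and among the 3 of replicate 6, whereas espn was not.

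Over all injury libraries, 1650 of the 3055 genes were never listed at 0, 990 were so in 1 library, 352 in 2, 59 in 3, and 2 each in 4 and in 5. espn was of the 59, and 63 genes, 2.06%, were listed at 0 in at least 3 libraries. ush1c and si:dkey-206p8.1 (ENSDARG00000096971) were those listed at 0 in 5 of 6 libraries, 0.0655% of the genes compared. In the other direction, 1 of 1599 genes with at least 5 FPKM in every injury library was listed at 0 in at least 4 of 5 distal libraries, or 0.0625%. Because the contrast chose ush1c, its place in this count is a description only. When libraries were left out, a 0 was asked for in at least all but 1 of the injury libraries kept. The count of 2 was 4 without injury replicate 5, injury replicate 6 or distal replicate 1. It was 5 without distal replicate 2 or 3, and ush1c was in each. It stayed at 2 when injury replicates 2 and 3 were both left out.

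**Figure D3:**
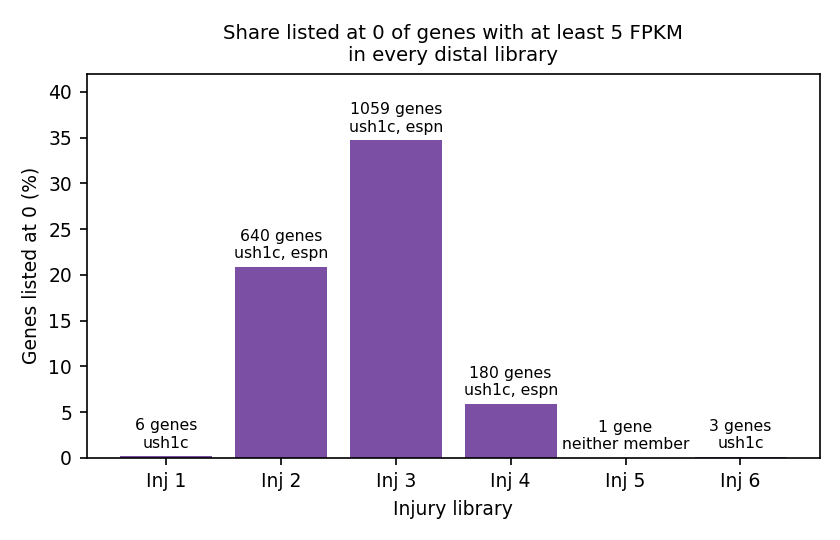
Bars give the percentage of the 3055 genes with at least 5 FPKM in every distal library that were listed at 0 in each injury library, with their number and whether ush1c or espn was among them written above. Injury replicates 2, 3 and 4 missed 180 to 1059 of these genes, and replicates 1, 5 and 6 missed 6, 1 and 3.

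The reads counted for espn may not be its own in every library. The espin-like paralogs of the fish, matched through the symbol ESPNL, have 2 IDs. ENSDARG00000093112 had 550 fragments (10.9 FPKM) in distal replicate 2, 65 (1.52 FPKM) in injury replicate 5 and 42 (0.822 FPKM) in injury replicate 6, with no fragment in the other 8 libraries. Those 3 include the distal library with the highest espn level and the 2 injury libraries with the most espn. Whether reads were shared between espn and this paralog was not tested. In the GRCz12tu assembly of RefSeq, which is not the build of these files, 2 annotated genes overlap espn, and whether strand was used in counting is not given in the sources used here.

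ush1c lies between islr2 and abcc8 in that assembly with no overlapping gene. The neighbours were chosen after their values were seen, and were matched by symbol only. The more abundant of the 2 ABCC8 IDs, ENSDARG00000051879, for a subunit of ATP-sensitive potassium channels, ranged over 0 to 12.4 FPKM in injury libraries and 0 to 4.11 FPKM in distal ones. ARHGEF16 (ENSDARG00000077114), a guanine nucleotide exchange factor next to espn, was listed at 0 in all distal libraries, with its highest levels, 2.72 and 5.37 FPKM, in injury replicates 5 and 6.

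The partners of harmonin in the hair bundle were compared next. The list held 17 gene symbols besides ush1c, which matched 17 IDs. Of these, 11 were abundant enough to test, 5 with a lower and 6 with a higher mean level at the injury. None passed limma's test at an adjusted p of 0.05, and 0 of 11 had an unadjusted p under 0.05, against 2.68% of all genes tested, 2.03% lower and 0.658% higher at the injury. The median difference of the 11 was 0.26, beside -0.04 for all genes tested, and none of them separated the groups.

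The core of the upper tip link was hardly measured. The IDs of cadherin 23 (CDH23, ENSDARG00000007561) and of myosin VIIa (MYO7A, ENSDARG00000044632 and ENSDARG00000099871) had at most 0.706 FPKM in any library and were too low to test. In the distal libraries both MYO7A IDs were listed at 0 throughout, and CDH23 was above 0 in replicates 2 and 4 alone, at 0.0389 FPKM or less. Of the 2 USH1G IDs, for Sans, ENSDARG00000004322 reached 11.1, 0.443 and 3.02 FPKM in distal replicates 1, 3 and 5 but was listed at 0 in replicates 2 and 4, where ush1c had 27.1 and 7.75 FPKM. The injury values were 3.83, 1.07 and 0.915 FPKM in replicates 1, 5 and 6. Of the 5 injury libraries with ush1c at 0, replicates 1 and 6 thus had this ID above 0, and replicates 2, 3 and 4 did not.

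Protocadherin 15, the lower strand of the tip link, has 3 IDs, all above 0 in libraries of both groups. PCDH15 (ENSDARG00000098257) spanned 0.449 to 3.27 FPKM distally and 0 to 10.9 FPKM at the injury (difference -0.08 ± 0.87 SE, n = 6 and 5; limma adjusted p 0.989). The second PCDH15 ID, ENSDARG00000008127, spanned 0.273 to 3.13 FPKM distally and 0 to 5.43 FPKM at the injury. The third, pcdh15b (ENSDARG00000071772), lay mostly at the injury, with 2.19, 2.32 and 2.91 FPKM in replicates 4, 5 and 6, and distally only in replicate 5 (0.361 FPKM). Its difference was 0.81 ± 0.52 (SE, limma adjusted p 0.838), and its unadjusted p fell under 0.05 when injury replicates 2 and 3 were left out. In that fit 1100 of 24504 genes had an unadjusted p under 0.05, 883 higher and 217 lower at the injury. The calcium-binding CIB2 (ENSDARG00000102820), which belongs to the transduction machinery, was the most abundant partner, with 45.9, 24.9, 7.87, 45.4 and 10.7 FPKM in distal replicates 1 to 5. Injury replicates 1 to 6 had 14.3, 0.0330, 82.2, 42.1, 7.86 and 31.8 FPKM of it, so that the groups overlapped widely (difference -0.50 ± 1.00 SE; limma adjusted p 0.907).

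The scaffold whirlin and its partners at the base of the bundle did not follow ush1c either. WHRN (ENSDARG00000068166) measured 3.04, 0.0126, 53.5, 24.3, 8.44 and 6.28 FPKM in injury replicates 1 to 6, against 0.432 to 9.98 FPKM distally. Its difference was 1.36 ± 1.04 (SE, n = 6 and 5; limma adjusted p 0.838). ADGRV1, an adhesion receptor, stayed at 1.49 FPKM or below. CLRN2, a clarin of the hair bundle, was above 0 only in injury replicate 6 (34.4 FPKM) and distal replicate 5 (1.95 FPKM). CLRN1 was listed at 0 in all 11 libraries. PDZD7 was found in injury replicate 1 and distal replicate 5, and CIB3 in injury replicate 5 alone.

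Genes that bundle actin or lengthen the core of microvilli and stereocilia formed the second list, with 36 IDs besides espn. The test covered 25 of them, of which 14 had a lower and 11 a higher mean level at the injury. None had an adjusted or an unadjusted limma p under 0.05. The median difference was -0.21, beside -0.04 for all genes tested. When injury replicates 2 and 3 were left out it was 0.10, beside 0.23 for all genes tested in that fit.

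Other bundling proteins ranged from abundant in both groups to nearly unmeasured. Fascin (FSCN1, ENSDARG00000059680), the bundler of filopodia and growth cones, was above 0 in all 11 libraries, at 3.83 to 66.8 FPKM at the injury, against 10.9 to 69.0 FPKM distally. Plastin 1 (PLS1, ENSDARG00000039272), which bundles the brush border core together with villin and espin, reached 3.02, 2.02 and 2.03 FPKM in distal replicates 2, 3 and 4. Injury replicate 5 had 1.57 FPKM of it, and no other library exceeded 0.0313 FPKM. Villin itself (VIL1) was listed at 0 in all libraries but injury replicate 4, at 0.0197 FPKM. In distal replicate 1, with 9.10 FPKM of espn, both PLS1 and VIL1 were listed at 0.

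Capping proteins and the Eps8 family set the length of such filaments. The capping subunits capza1a, capza1b and CAPZB were, with fascin, the genes of the list with the highest means, and their groups overlapped. CAPZB, for example, ranged over 0 to 131 FPKM at the injury, against 30.9 to 167 FPKM distally. Within the Eps8 family the paralogs differed: eps8l1a (ENSDARG00000057984) was highest in distal replicate 4 (29.6 FPKM), with at most 3.01 FPKM in any other library. For eps8b (ENSDARG00000069011) the injury replicates 1, 4, 5 and 6 gave 6.35, 10.3, 1.69 and 11.8 FPKM, and of the distal libraries only replicate 3 was above 0 (1.23 FPKM). The difference of eps8b was 1.68 ± 0.87 (SE, n = 6 and 5; limma adjusted p 0.838). Its unadjusted p fell under 0.05 when injury replicate 2 or injury replicate 3 was left out. The class III myosin MYO3B, which carries espin and espin-like proteins to the tips of stereocilia, was above 0 in distal replicates 3 and 4 (0.637 and 9.40 FPKM) and injury replicates 1, 5 and 6 (0.314 to 2.97 FPKM).

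**Figure D4:**
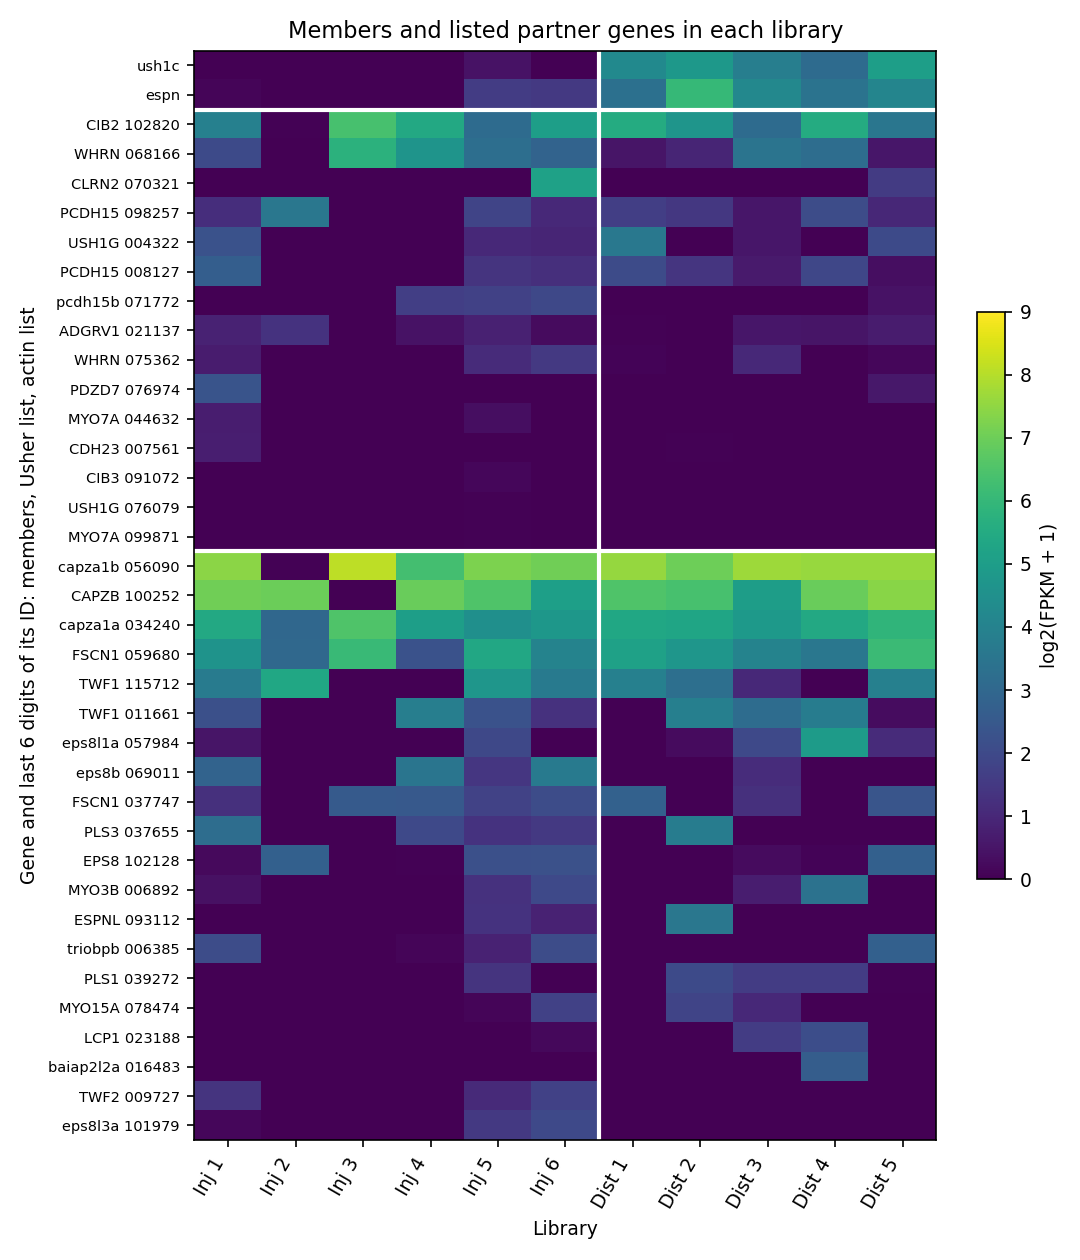
Colour gives log2(FPKM + 1) in each library for ush1c and espn (top), for IDs of the Usher list (middle) and for the 20 actin list IDs with the highest mean (bottom), with injury libraries left and distal libraries right of the white line. The members change at that line, and none of the partner genes does so in all libraries.

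The third list held genes of the brush border links and of the anchors between microvillus actin and membrane, and matched 24 IDs, of which 19 were tested. Again 0 of 19 had an unadjusted limma p under 0.05, with 8 lower and 11 higher at the injury and a median difference of 0.24. Ezrin (EZR, ENSDARG00000025091), the main linker of microvillus actin to the membrane, ranged over 5.95 to 26.3 FPKM in the distal libraries. It was listed at 0 in injury replicates 2 and 3, those with the fewest genes detected, and lay at 9.02 to 22.4 FPKM in the other 4. Of the brush border partners of harmonin, cdhr5b (ENSDARG00000098791), a cadherin of the intermicrovillar links, appeared in distal replicate 2 alone (16.9 FPKM). The scaffold ANKS4B was above 0 in injury replicate 6 and distal replicate 5 only, at 0.383 and 0.414 FPKM.

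The 3 lists together held 77 IDs besides ush1c and espn, 2 of which were at 0 in every library. Between 10 and 55 of the 77 were above 0 in an injury library and between 23 and 42 in a distal library, and the extremes were injury replicates 3 and 5. Of the 55 tested, 27 had a lower and 28 a higher mean level at the injury, and 0 separated the groups, where 0.252% of all genes tested did. Without distal replicate 2 the number was 1, MYO6 (ENSDARG00000042141), a minus-end-directed myosin that was lower at the injury. Without injury replicates 2 and 3 it was 2, eps8b and prom2, both higher at the injury.

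Marker genes of cells that could carry harmonin or espin were measured alongside. Of 19 hair cell IDs, 4 were listed at 0 in every library, among them the hair cell transcription factor POU4F3, and ATOH1 was above 0 in distal replicate 4 alone (2.83 FPKM). The summed level of this list was 126 to 484 FPKM at the injury, against 165 to 286 FPKM distally. Its most abundant gene was tmie, a transduction channel subunit, with 97.7 to 324 FPKM at the injury, against 157 to 270 FPKM distally.

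Markers of neurons that touch the cerebrospinal fluid differed among themselves. Of 16 IDs 14 were tested, 4 lower and 10 higher at the injury, and none had an unadjusted limma p under 0.05. GAD2 and SOX1 (ENSDARG00000008131) were above 0 in every library. Distally they had 10.2 to 52.3 and 16.1 to 71.0 FPKM, against 22.1 to 78.7 and 37.5 to 134 FPKM at the injury. pkd1l2a was listed at 0 in distal replicate 2, with up to 4.04 FPKM in the other distal libraries and 36.6 FPKM at the injury. The channel gene PKD2L1 (ENSDARG00000022503), which defines these cells, was above 0 in distal replicates 1, 3 and 5 (1.03 to 5.71 FPKM) and listed at 0 in distal replicates 2 and 4, in which espn had 64.3 and 9.63 FPKM. In injury replicate 6 it reached 32.7 FPKM, with the peptide genes urp1 and urp2 at 537 and 141 FPKM, while espn had 1.81 FPKM and ush1c was listed at 0. Injury replicate 5, with 2.02 FPKM of espn and 0.354 FPKM of ush1c, had 213 FPKM of urp1, 19.5 FPKM of urp2 and 0.595 FPKM of PKD2L1. Both peptide genes were listed at 0 in injury replicates 1 to 4. Distally urp1 was above 0 in replicates 3 and 5 (0.509 and 4.03 FPKM), and urp2 was listed at 0 throughout. The list also holds the transcription factors GATA2 and GATA3, which serotonergic neurons use as well, and its summed level was 557 to 1380 FPKM at the injury, against 462 to 1201 FPKM distally.

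Among other cell types, the myelin gene mbpa (ENSDARG00000036186) also had a lower mean level at the injury. Its log2 difference was the lowest of all 24178 genes tested, below those of ush1c and espn. Among the distal libraries mbpa did not follow ush1c, being lowest in distal replicate 5, where ush1c was highest. Distal replicates 1 to 5 held 530.1, 531, 299, 237 and 129 FPKM of it, and injury replicates 1 to 6 held 0.590, 8.82, 0, 37.0, 35.1 and 234 FPKM (difference -4.54 ± 1.04 SE; limma adjusted p 0.838). The groups overlapped through injury replicate 6, and no other oligodendrocyte gene had an unadjusted p under 0.05. Injury replicate 6, without ush1c, had the highest summed level of the 9 oligodendrocyte IDs, 758 FPKM, against 0 to 63.6 FPKM in the other injury libraries and 162 to 708 FPKM distally. In distal replicate 4, which carried both genes, plp1b, cldnk, mag, SOX10 and OLIG2 were listed at 0.

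The remaining marker lists overlapped between the groups in their summed levels except for floor plate genes. Ependymo-radial glia genes summed to 8.73 to 468 FPKM at the injury, against 47.2 to 121 FPKM distally. Of the 11 tested, 9 had a higher mean level at the injury and 2 a lower one (median difference 0.66). The glial intermediate filament gene GFAP and the gap junction gene GJA1, highest in injury replicates 5 and 6, differed by 1.55 ± 1.04 and 1.60 ± 1.15 (SE; limma adjusted p 0.838 for both). The cilium gene ENKUR, lower at the injury, alone of the 11 had an unadjusted limma p under 0.05 (difference -2.23 ± 1.02 SE; adjusted p 0.838). Its injury libraries, at 0 to 20.6 FPKM, overlapped the distal ones at 4.63 to 38.3 FPKM. Microglia and macrophage genes summed to 0 to 111 FPKM at the injury, against 0.193 to 150 FPKM distally, and pan-neuronal genes to 1721 to 3911 FPKM and 2047 to 3458 FPKM. The floor plate list summed to 33.1 to 83.9 FPKM at the injury, against 95.6 to 189 FPKM distally, most of it from 1 ID of NTN1. The part of these marker genes in the levels of ush1c and espn was not tested.

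NTN1 (ENSDARG00000022531) encodes netrin 1, a guidance cue for growing axons that the floor plate releases. Its levels were 34.6, 47.5, 33.1, 42.5, 73.4 and 54.1 FPKM in injury replicates 1 to 6 and 90.4, 154, 101, 111 and 171 FPKM in distal replicates 1 to 5. All 6 injury libraries lay below all 5 distal ones, by -1.39 ± 0.64 on the log2 scale (SE; unadjusted limma p 0.0383, adjusted p 0.838). It thus failed the correction over all genes. The second NTN1 ID, ENSDARG00000105112, spanned 0 to 8.25 FPKM and 0.0239 to 7.94 FPKM in the same order. Other floor plate markers were low or absent in most libraries, with sspo at 0.170 FPKM or below and both SHH IDs at 2.53 FPKM or below. FOXA2 was above 0 only in distal replicates 2 and 5 (27.6 and 0.949 FPKM). For nkx2.2b the distal replicates 1, 3, 4 and 5 were above 0 (0.706 to 3.17 FPKM), and at the injury replicate 6 alone (9.03 FPKM).

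The genes whose levels were most like those of ush1c and espn were ranked by Pearson's correlation of log2(FPKM + 1) over the 11 libraries, among 15702 genes averaging 1 FPKM or more. The libraries share the difference between the groups on which ush1c and espn were chosen, so high values come with that choice and are a description. For ush1c the closest was SEZ6 (ENSDARG00000100876, r 0.94), a neuronal membrane protein, followed by espn (r 0.93), NTN1 (r 0.92), si:dkey-206p8.1 (r 0.89) and PTAR1 (ENSDARG00000102338, r 0.89). For espn they were Novel05340 (r 0.95), NTN1 (r 0.94), Novel04701 (r 0.94), PTAR1 (r 0.93) and ush1c (r 0.93). No gene of the 3 partner lists was among them.

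SEZ6 measured 4.33, 2.88, 8.45, 1.96 and 7.38 FPKM in distal replicates 1 to 5, and of the injury libraries only replicate 5 had any (0.799 FPKM). This is the same injury library that held the 7 fragments of ush1c. si:dkey-206p8.1 had 25.9, 22.5, 21.7, 21.8 and 27.4 FPKM distally, and injury replicate 1 alone of the others held some (8.50 FPKM). PTAR1, a gene of the protein prenyltransferase family, had 4.39 to 30.7 FPKM distally and 2.71 and 3.36 FPKM in injury replicates 5 and 6, the injury libraries with most espn. Novel05340 and Novel04701 are IDs from outside Ensembl with no annotation in the sources used here.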

How the data were processed

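The authors mapped paired-end reads of SMART-Seq v4 libraries of sorted ISNs to the zebrafish genome and calculated FPKM from gene length and mapped reads, with no stated scaling between libraries. The submitters' processing notes name danRer11, HISAT2 2.0.5 and HTSeq 0.9.1. The authors' deposited table holds FPKM alone, 1 column for each of the 11 libraries.

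Since FPKM values descend from whole fragments, library totals and fragments were recovered from the values (all totals within 6.97e-05 of a whole number; the smallest length giving whole fragments was taken). Tested on simulated data, 11 of 11 totals and 99.4% of the fragments of genes seen in 3 or more libraries came back. Symbols were matched by Ensembl ID. For list genes the paralog letter was dropped where the reference gives a mammalian symbol, so an ID may belong to either paralog.

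The 24178 genes averaging 0.1 FPKM or more entered a two-sided limma test (version 3.58.1, R 4.3.3; lmFit and trended eBayes). Values were log2(FPKM + 1), and p-values were adjusted by Benjamini-Hochberg. FPKM, the deposited unit, was tested on the log scale, and the recovered fragments served an alternative with voom. Simulated data served to check the fit. With the libraries of each gene shuffled, 2.92% of the genes given no difference had an unadjusted limma p under 0.05. In the data as measured the share was 2.68%. At shares this low, a count of 0 among a few listed genes does not show that they were unchanged. With Python 3.11.15, pandas 2.3.3 and matplotlib 3.10.9, ranges and counts were taken over libraries.

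The genes ush1c and espn and the gene lists were chosen with earlier results of these data known. Named are ush1c and espn, list genes with an unadjusted p under 0.05 or separated groups, the Usher list (1 gene of it is counted but not reported by name), the up to 4 highest genes of each list, the 5 genes most like each member, and genes present in every distal library but listed at 0 in at least 5 injury libraries. Other genes named were chosen after their values were seen. Alternatives covered the number added before the logarithm, filters, scaling, the variance prior, voom on recovered fragments, the replicate number as a block and leaving out libraries.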

Additional observations from a re-analysis of the deposited data

Results flagged for a closer look

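A library was looked at again where its gap to the nearest other library of its group exceeded Dixon's 95% limit. For normally distributed values chance does so in about 1 of 20 groups. The values here were untransformed, and some overlap, as mbpa is part of the oligodendrocyte sum, so that rate need not hold. Of 36 groups of values examined, 6 did. Values of 0 in nearly all libraries of a group meet this limit by themselves.

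For ush1c, injury replicate 5 had 0.354 FPKM against 0 in the other 5 injury libraries. For si:dkey-206p8.1 (ENSDARG00000096971), injury replicate 1 had 8.50 FPKM against 0 in the others. For espn, distal replicate 2 had 64.3 FPKM against 9.10 to 17.3 FPKM in the other distal libraries, and leaving it out changed the log2 difference from -3.68 to -3.23. The other 3 were in injury replicate 6, which had 234 FPKM of mbpa (ENSDARG00000036186), 758 FPKM summed over the oligodendrocyte list and 111 FPKM summed over the microglia and macrophage list, against at most 37.0, 63.6 and 30.7 FPKM in the other injury libraries.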

How the results depend on the processing

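The log2 differences of ush1c and espn kept their sign under all alternatives run. Since all distal libraries lay above all injury libraries, leaving out libraries or changing the added number could not reverse that sign. Leaving out any 1 library gave -4.42 to -3.95 for ush1c and -3.90 to -3.23 for espn. They moved by more than the spread between libraries with 0.1 (-7.10 and -5.87) or 0.01 (-9.91 and -7.71) added before the logarithm and with voom on recovered fragments (-8.80 and -7.59). No gene of 24178 passed an adjusted limma p of 0.05, with 649 at an unadjusted p under 0.05; 2 passed without a trend in the variance prior, and 3 with voom, where 1215 had an unadjusted p under 0.05. Of the partner genes tested, 0 passed an adjusted p of 0.05 in each of these fits. At an unadjusted limma p under 0.05 the highest number was 3. It was reached with voom (TWF2, eps8b and eps8l3a) or without injury replicates 2 and 3 (TWF2, eps8b and pcdh15b). Leaving out those 2 libraries was an alternative added after the data were seen. In that fit 1100 of 24504 genes had an unadjusted p under 0.05, 883 higher and 217 lower at the injury. Partner genes that separated the groups numbered 0 as reported and 0 to 1 when 1 library was left out (MYO6, lower at the injury). They numbered 2 without injury replicates 2 and 3 (eps8b and prom2, both higher at the injury). The share of all genes that separated in these alternatives was not counted. Genes present in every distal library and listed at 0 in at least 5 injury libraries numbered 2. The number was 4 with a distal minimum of 1 FPKM. It was 1 with a minimum of 10 FPKM, which is above the 7.75 FPKM of ush1c in distal replicate 4. When 1 library was left out it was 2 to 5, with a 0 asked for in at least all but 1 of the injury libraries kept.

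With the replicate number as a block in 10 libraries, a replicate block, the differences were -4.13 and -3.87 and 0 genes passed. The numbers were not treated as pairs, since same-numbered libraries deviated together with correlations of 0.0523, 0.00531, -0.0465, -0.00212 and 0.133, and the best match of an injury library had its own number only for replicates 1 and 5.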
